A study of Mus musculus with 12 samples.

Results

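*Etv1*, *Nkx2-5*, *Irx3*, *Irx4*, *Tbx3*, *Tbx5*, *Tbx20*, *Id2*, *Hopx* and *Gata4* are regulators of transcription known from the cardiac conduction system. They were chosen by name, as 10 of the 48526 genes counted, and each symbol matched 1 Ensembl gene of GRCm38. Their RNA was compared between Purkinje cells (PCs) and ventricular myocytes (VMs) of adult male mice that were either *Ncam-1* WT or *Ncam-1* KO (germline *Ncam-1*-/-), with 3 libraries for each of the groups WT PC, KO PC, WT VM and KO VM. All 4 groups carried the *Cntn2*-EGFP BAC transgene, kept on a CD1 background and crossed to the *Ncam-1* line kept on C57BL/6. All cells were incubated with 50 nM TMRM, a dye of mitochondria, for 15 min, and were sorted as RFP+GFP+ (PC) or RFP+GFP- (VM), so the level of the *Cntn2* reporter decided which cells counted as PCs in either genotype. RNA was amplified before sequencing. Neither the labels nor the methods say whether each library came from its own heart, so p-values measure the spread between these libraries, which may be technical in part.

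PCs carry the impulse from the bundle branches into the working ventricle. They conduct fast because they express connexin 40 (*Gja5*) and sodium channels at high levels. Among the factors, NKX2-5, GATA4, TBX5 and TBX20 belong to the general cardiac program and are active in working myocytes too. TBX3 is a repressor of working myocardial genes that marks the nodes and the proximal conduction system. IRX3 is known for patterning of the His-Purkinje network and IRX4 for ventricular identity. ETV1 is an ETS factor linked to the fast-conducting program, ID2 an inhibitor of basic helix-loop-helix factors that is required for normal bundle branches, and HOPX a homeodomain protein without DNA binding that acts as a cofactor.

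Between 1532393 and 6761356 counts per library fell on genes outside the mitochondrial genome, whose own genes took 79.0% to 91.3% of all counts. WT PC replicate 2 stood apart, with 63.9% of its read pairs left unaligned (18.8% to 24.7% elsewhere) and 11847 genes with a count (13571 to 18129 elsewhere). Most differences in which that library takes part are also given without it. *Ncam1*, the gene knocked out, had 83, 34 and 116 counts in the WT PC libraries, 6, 0 and 9 in WT VMs, at most 1 in KO PCs and 0 in KO VMs. Normalized counts below are counts scaled by edgeR's TMM method to the geometric mean of the 12 library sizes. A library with 3 or fewer counts of a gene was taken to be at the floor of detection, a limit for counting error alone, since reads were not tied to single molecules. Each factor had a mean normalized count above 5 in every comparison, so all 10 were tested in each.

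*Etv1* was the factor that set PCs apart. It lies at chr12:38779380-38870484 on the plus strand of GRCm38 and had normalized counts of 156, 429 and 453 in replicates 1, 2 and 3 of WT PCs and of 33.8, 19.8 and 31.8 in WT VMs. In KO it had 105, 55.6 and 258 in PCs and 25.5, 24.4 and 19.7 in VMs. Every PC library was above every VM library in both genotypes, an order found for 7.29% of all genes tested in WT and 8.66% in KO.

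The PC over VM log2 fold change of *Etv1* was 3.58 in WT (standard error 0.465), an 11.9-fold difference, and 2.63 in KO (standard error 0.452), a 6.20-fold difference. The adjusted p-values were 0.0317 in WT and 0.0133 in KO (edgeR's quasi-likelihood test, adjusted by the Benjamini-Hochberg method). *Etv1* was the 1 factor of 10 called in each genotype, where 0.11% of the 11822 genes tested in WT and 0.881% of the 10779 tested in KO were called. Over both genotypes together, the difference was 3.16 (standard error 0.387, adjusted p = 7.34e-04 from the same edgeR test), with 1.3% of 11323 genes called. The exact permutation test over the libraries, within genotype, gave p = 0.005, the smallest its 400 relabellings allow. In WT the call was lost when WT PC replicate 3 or any 1 WT VM library was left out (adjusted p = 0.205 to 0.415 in edgeR's test, log2 fold change 3.35 to 3.73), and in KO when any 1 KO VM library was left out (0.0581 to 0.0703). Of all genes tested, these fits called 1, 1, 1 and 0 in WT and 19, 40 and 20 in KO. With every library kept, 13 were called in WT and 95 in KO. The replicate number as a block also ended the WT call (adjusted p = 0.1002 in edgeR's test, log2 fold change 3.46), and 1 fit of all 12 libraries ended the KO call (adjusted p = 0.0991 in edgeR's test). The KO difference was 1.77 without KO PC replicate 3, the highest of its group (adjusted p = 0.0337 in edgeR's test), and 3.01 without KO PC replicate 2. The WT difference was 3.37 without WT PC replicate 2 (adjusted p = 7.46e-04 in edgeR's test).

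**Figure D1:**
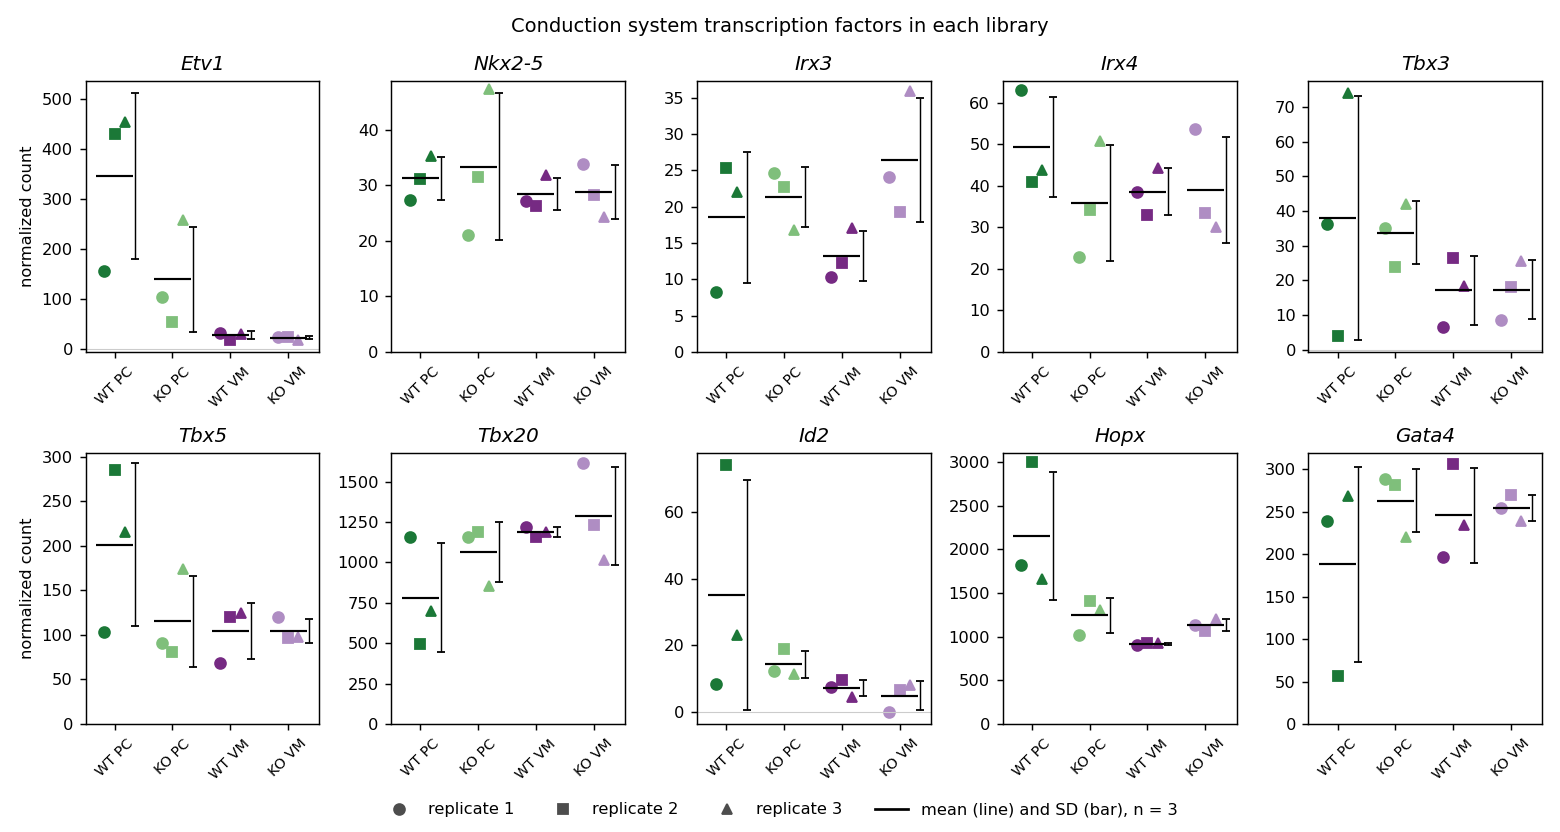
Normalized count (vertical axes, linear) of each factor in each of the 12 libraries, by group (horizontal axes), with replicate numbers as symbols, the mean of the 3 libraries as a line and their SD as a bar. *Etv1* lies at 55.6 to 453 in PCs and at 19.7 to 33.8 in VMs, whereas the groups of *Nkx2-5*, *Irx4* and *Gata4* lie over each other.

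*Hopx* had its highest counts in WT PCs but did not pass the adjustment. It lies at chr5:77086988-77115121 on the minus strand, and its normalized counts were 1819, 3000.0 and 1656 in WT PCs and 903, 923 and 927 in WT VMs. In KO PCs they were 1021, 1410.3 and 1302 and in KO VMs 1136, 1069.6 and 1205. WT PCs stood above all other libraries, and WT VMs below all others, while KO PCs and KO VMs overlapped.

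The PC over VM log2 fold change of *Hopx* was 1.22 in WT (standard error 0.263, adjusted p = 0.272 in edgeR's quasi-likelihood test) and 0.14 in KO (standard error 0.145, adjusted p = 0.842). In WT, 2 of the 10 factors had PC libraries all above the VM libraries, *Hopx* and *Etv1*, beside the 7.29% of all genes tested. Leaving out WT PC replicate 2, where *Hopx* was highest, lowered the WT difference to 0.89 and its adjusted p-value to 0.0122 in edgeR's test. That fit called 96 of 12139 genes, against 13 of 11822 with every library. With every library kept, *Hopx* was called in WT by DESeq2's Wald test (adjusted p = 0.0113), by limma voom (0.00617), without a filter on low counts (0.00120) and in 1 fit of all 12 libraries (0.0205). Over both genotypes the difference was 0.70 (adjusted p = 0.118 in edgeR's test), and the exact permutation p was 0.025. That difference was 0.50 without WT PC replicate 2, and it then passed the adjustment (adjusted p = 0.0346 in edgeR's test).

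The promoters of *Etv1* and *Hopx* are shown because these were the factors whose WT PC and WT VM libraries did not overlap. RefSeq's table for GRCm38.p6 held promoter windows of 300 bases, 250 before and 50 after a start, for 7 of the 10 genes, 9 windows in all. *Gata4*, *Tbx3* and *Tbx5* had none. Core motifs of the factors' own families were searched on both strands: CGGAAG for ETS factors, AGATAA for GATA factors, AGGTGT for T-box factors, TNAAGTG for NK2 factors and ACANNTGT for Iroquois factors. Capitals mark a match, and the windows are written 5′ to 3′ on the strand of the gene.
Etv1, chr12:38779832-38780131, plus strand: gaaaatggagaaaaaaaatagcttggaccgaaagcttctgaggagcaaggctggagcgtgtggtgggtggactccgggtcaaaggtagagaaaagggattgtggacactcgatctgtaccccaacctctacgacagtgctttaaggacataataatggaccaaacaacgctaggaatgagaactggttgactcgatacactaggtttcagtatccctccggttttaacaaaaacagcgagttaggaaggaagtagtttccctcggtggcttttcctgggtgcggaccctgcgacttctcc
Etv1, downstream start, chr12:38783461-38783760, plus strand: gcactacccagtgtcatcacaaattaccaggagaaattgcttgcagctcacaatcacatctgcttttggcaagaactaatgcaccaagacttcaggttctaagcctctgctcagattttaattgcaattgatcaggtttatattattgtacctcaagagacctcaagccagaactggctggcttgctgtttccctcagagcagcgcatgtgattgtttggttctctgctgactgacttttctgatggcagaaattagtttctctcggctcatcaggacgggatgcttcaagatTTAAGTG
Hopx, upstream start, chr5:77115074-77115373, minus strand: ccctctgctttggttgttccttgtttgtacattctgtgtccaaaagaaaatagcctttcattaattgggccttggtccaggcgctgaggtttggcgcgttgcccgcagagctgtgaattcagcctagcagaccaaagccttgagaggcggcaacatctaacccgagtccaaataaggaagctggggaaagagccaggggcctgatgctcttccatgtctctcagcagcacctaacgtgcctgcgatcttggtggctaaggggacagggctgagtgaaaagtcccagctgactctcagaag
Hopx, downstream start, chr5:77095218-77095517, minus strand: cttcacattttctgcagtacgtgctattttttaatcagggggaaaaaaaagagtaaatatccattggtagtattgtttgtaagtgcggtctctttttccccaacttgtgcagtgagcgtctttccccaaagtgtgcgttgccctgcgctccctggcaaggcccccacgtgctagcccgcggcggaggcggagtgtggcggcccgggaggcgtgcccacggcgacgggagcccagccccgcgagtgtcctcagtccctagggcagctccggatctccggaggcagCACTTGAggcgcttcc
The upstream windows of *Etv1* and *Hopx* held none of the 5 motifs. The downstream windows of *Etv1* and *Hopx* each held 1 match to the NK2 motif, beginning 43 and 34 bases after the start and lying in opposite orientations relative to the gene. Among 32817 promoter windows of mouse genes, 11.5% held that motif, so a match in 2 of 9 windows is a description of these letters and not of a bound site. The ETS motif was in 2 of the 9 windows, those of *Irx3* and *Id2*, against 16.9% of all windows. The GATA, T-box and Iroquois motifs were in none of the 9, against 11.2%, 13.7% and 7.38% of all windows, which says only that these letters are not in these windows.

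*Id2*, *Tbx3* and *Tbx5* had larger mean counts in PCs than in VMs in WT, and the libraries of these groups overlapped for each of them. *Id2* (chr12:25093799-25097140) was weakly detected, with raw counts of 19, 38 and 40 in WT PC libraries, 8, 10 and 6 in WT VMs, 7, 15 and 17 in KO PCs and 0, 5 and 7 in KO VMs. Normalized, these were 8.28, 74.1 and 23.1 in WT PCs and 7.50, 9.41 and 4.44 in WT VMs, which overlapped. In KO they were 12.3, 18.9 and 11.4 in PCs and 0, 6.42 and 8.10 in VMs, which did not, as for 8.66% of all genes tested.

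The PC over VM log2 fold change of *Id2* was 2.23 in WT (95% interval 0.31 to 4.15) and 1.49 in KO (-0.26 to 3.24), and neither passed the adjustment. Over both genotypes it was 1.92 (standard error 0.612, p = 0.00631, adjusted p = 0.152 in edgeR's test), with an exact permutation p of 0.01. In that comparison *Id2* was called by DESeq2's Wald test (adjusted p = 0.0310) and without a filter on low counts (0.0204). These values were 1.10 in WT and 1.31 over both genotypes without WT PC replicate 2. ID2 is also made by cells other than myocytes, and the markers of such cells are given further on.

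*Tbx3* (chr5:119670669-119684724) had normalized counts of 36.2, 3.90 and 74.0 in WT PCs and 6.56, 26.4 and 18.5 in WT VMs. It had 35.2, 24.0 and 42.1 in KO PCs and 8.49, 18.0 and 25.5 in KO VMs. The low value in WT PCs was that of replicate 2, with 2 counts, while the other WT PC libraries were above all VM libraries. The log2 fold change over both genotypes was 1.09 (standard error 0.484, p = 0.0379, adjusted p = 0.380 in edgeR's test; exact permutation p = 0.24). Without WT PC replicate 2 it was 1.32, with an adjusted p of 0.0373 in edgeR's test, and limma voom with all 12 libraries called it too (1.28, adjusted p = 0.0486).

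*Tbx5* (chr5:119832668-119885219) showed 104, 285 and 216 in WT PCs, 91.4, 80.8 and 174 in KO PCs, 68.5, 119.5 and 125 in WT VMs and 120.2, 96.3 and 97.2 in KO VMs. WT PC replicates 2 and 3 were above every VM library and replicate 1 was within their range. The PC over VM log2 fold change was 0.92 in WT (adjusted p = 0.776 in edgeR's test), 0.18 in KO and 0.57 over both genotypes, and none passed the adjustment. The WT value was also 0.57 without WT PC replicate 2.

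Of the general cardiac factors, *Tbx20* had lower mean counts in PCs than in VMs without passing the adjustment. At chr9:24718138-24774303, it had normalized counts of 1157, 493 and 697 in WT PCs and 1222, 1156 and 1188 in WT VMs, so that replicate 1 of WT PCs lay at the lower edge of the VM range and the others below it. In KO the values were 1157, 1189 and 853 in PCs and 1618, 1230.1 and 1018 in VMs. The log2 fold change was -0.62 in WT, -0.26 in KO and -0.43 over both genotypes (standard error 0.182, p = 0.0320, adjusted p = 0.353 in edgeR's test; exact permutation p = 0.07). Without WT PC replicate 2, the lowest library, it was -0.31 over both genotypes and -0.39 in WT.

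*Gata4* (chr14:63198922-63271692) and *Nkx2-5* (chr17:26838664-26845009) overlapped between the cell types. *Gata4* had 197 to 307 in the VM libraries and 221 to 288 in 5 of the 6 PC libraries, and WT PC replicate 2 lay apart at 56.6, with 29 counts. Its log2 fold change was -0.39 in WT (95% interval -1.46 to 0.69), became 0.015 without that library, and was 0.05 in KO (-0.32 to 0.42). *Nkx2-5* ran from 21.1 to 47.4 in PCs and from 24.3 to 33.9 in VMs. Its log2 fold change was 0.12 in WT (-0.83 to 1.06) and 0.27 in KO (-0.59 to 1.12), so the upper ends of both intervals lie above 1 on the log2 scale.

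The Iroquois genes overlapped between PCs and VMs as well. *Irx3* (chr8:91798525-91802067) had 8.28, 25.4 and 22.0 in WT PCs, 24.6, 22.7 and 16.7 in KO PCs and 10.3, 12.2 and 17.0 in WT VMs, and was highest in KO VMs with 24.0, 19.3 and 35.9. The PC over VM log2 fold change was 0.43 in WT (standard error 0.634, and 0.14 without WT PC replicate 2) and -0.32 in KO (standard error 0.448). *Irx4* (chr13:73260479-73269608) had 22.9 to 63.2 in PCs and 30.1 to 53.7 in VMs, with log2 fold changes of 0.34 in WT and -0.06 in KO. *Irx3* shares 124 exonic bases with the antisense gene *Irx3os*, which had up to 20 counts in a library, and *Hopx* shares 412 with *Hopxos*, which had up to 5. As the strand setting of the counting is not given in the sources used here, reads of these pairs cannot be told apart where they overlap.

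Counted together, 3 of the 10 factors had an unadjusted p-value under 0.05 and more RNA in PCs in WT (*Etv1*, *Id2* and *Hopx*), where 5.14% of all genes tested did. In KO 1 did (*Etv1*), against 7.25% of genes. Over both genotypes 4 were higher (*Etv1*, *Tbx3*, *Id2* and *Hopx*; background 8.91%) and 1 lower (*Tbx20*; background 2.77%). When WT PC replicate 2 was left out, *Tbx3* took the place of *Id2* among the 3 in WT, and the 4 higher and the 1 lower over both genotypes were the same genes. The median log2 fold change of the 10 was 0.67 in WT (0.51 without that library) and 0.16 in KO, beside medians of 0.0037 and 0.019 over all genes tested.

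**Figure D2:**
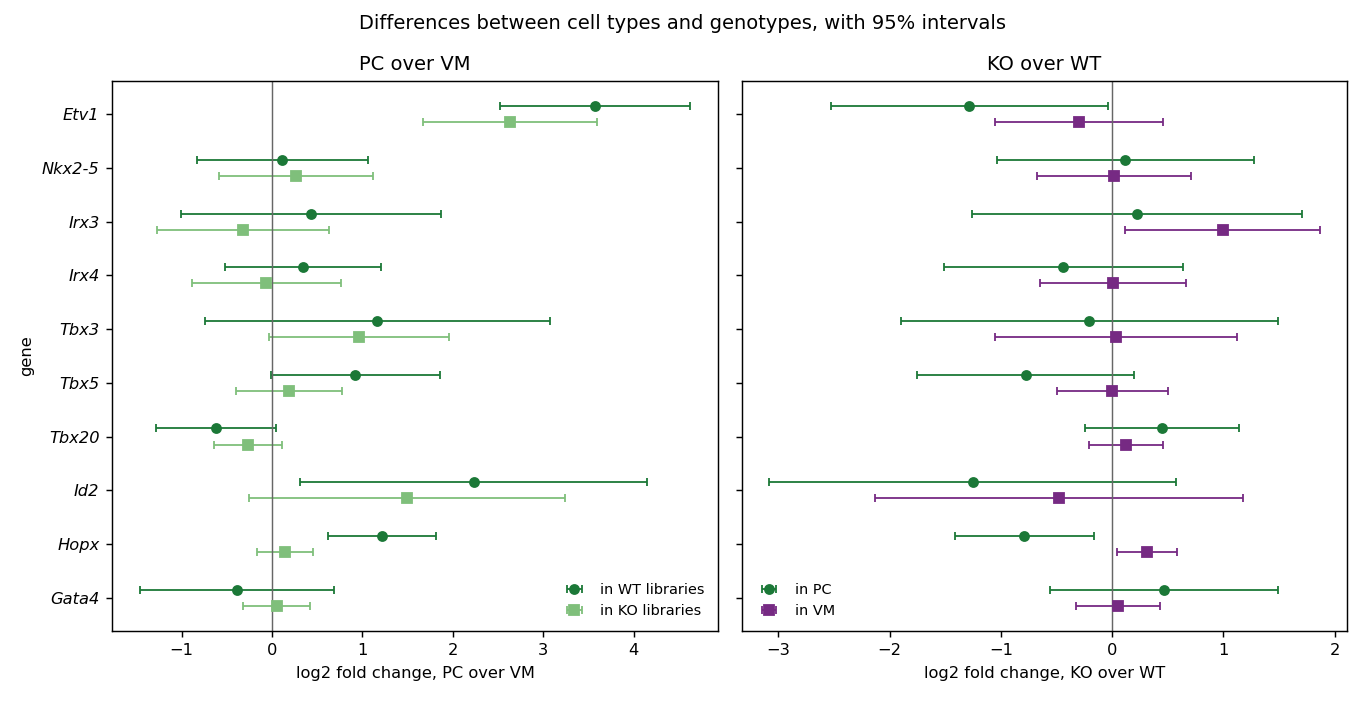
Log2 fold changes (horizontal axes) of each factor with 95% intervals from edgeR's fits, PC over VM at left and KO over WT at right. *Etv1* at left is the 1 factor called in both genotypes (3.58 in WT and 2.63 in KO), and at right most intervals span 0.

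In PCs without NCAM-1, none of the 10 factors was called at an adjusted p under 0.05 by edgeR's quasi-likelihood test, as was true of all 11754 genes tested (0%). At an unadjusted p under 0.05, *Etv1* and *Hopx* were lower in KO PCs, 2 of 10, where 2.6% of all genes tested were lower. *Etv1* had a log2 fold change of -1.28 (95% interval -2.53 to -0.04, adjusted p = 0.978 in edgeR's test). Its 3 KO PC libraries, at 105, 55.6 and 258, overlapped the 3 of WT PCs, at 156, 429 and 453, because KO PC replicate 3 was above WT PC replicate 1. The exact permutation p was 0.2, where 3 against 3 libraries cannot go below 0.1. Fitted without a filter on low counts, *Etv1* was called (adjusted p = 0.0313 in edgeR's test) at nearly the same log2 fold change, -1.27. In that fit 132 of 21610 genes were called. Leaving out single libraries moved the value from -2.12, without KO PC replicate 3, to -0.91, without KO PC replicate 2, and it was -1.07 without WT PC replicate 2.

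*Hopx* had a log2 fold change of -0.79 in KO PCs (standard error 0.280, adjusted p = 0.978 in edgeR's test). All KO PC libraries were below all WT PC libraries for *Hopx*, as for 4.7% of all genes tested. The exact permutation p was 0.1, the smallest possible. Its log2 fold change was -0.47 without WT PC replicate 2, still at an unadjusted p under 0.05. The other 8 factors had unadjusted p-values from 0.106 to 0.825 in edgeR's test. Among them, *Tbx5* had a log2 fold change of -0.78 (95% interval -1.76 to 0.20), which was -0.42 without WT PC replicate 2, and *Id2* had -1.25 (-3.08 to 0.58), which was -0.13. With and without that library, the values were -0.44 and -0.52 for *Irx4*, -0.20 and -0.67 for *Tbx3*, 0.12 and 0.14 for *Nkx2-5*, 0.22 and 0.50 for *Irx3*, 0.45 and 0.21 for *Tbx20* and 0.47 and 0.055 for *Gata4*.

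The KO PC libraries differed among themselves in what marks PCs, and *Etv1* went with it. The summed normalized count of 8 Purkinje markers, which hold the reporter gene *Cntn2*, was 896, 2044 and 2893 in WT PCs and 290.0, 317 and 1399 in KO PCs, against 62.1 to 78.8 in WT VMs and 103 to 142 in KO VMs. Of these markers, 4 of 8 were called higher in PCs in WT and 4 of 7 in KO, *Cntn2*, *Sema3a*, *Slit2* and *Scn10a* in both. Of all genes tested, 0.11% were called in WT and 0.881% in KO. The sort used the *Cntn2* reporter and the list was chosen with earlier results known, so these calls are no separate check of the sort. *Cntn2* alone had 237, 451 and 533 in WT PCs and 38.67, 49.2 and 452 in KO PCs. KO PC replicate 3, with the highest *Etv1* of its group, was the library whose markers were within the WT range, and replicates 1 and 2 were below it in the markers and in *Etv1*. Bulk libraries cannot tell fewer PCs in the sorted sample from less RNA of these genes per PC. The part of marker content in the values of *Etv1* and *Hopx* was not tested.

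**Figure D3:**
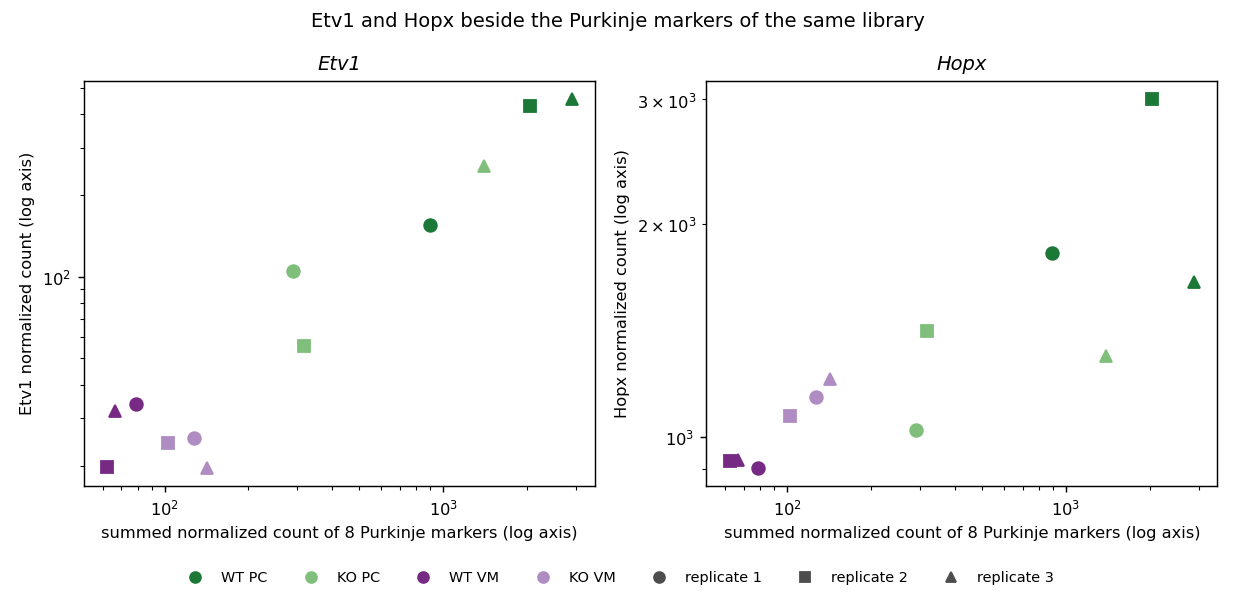
Normalized count of *Etv1* and *Hopx* (vertical, log axes) against the summed normalized count of 8 Purkinje markers in the same library (horizontal, log axes), 1 point per library. *Etv1* was 105 and 55.6 in the KO PC libraries with marker sums of 290.0 and 317, and 258 in the one at 1399.

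In VMs, 0 of the 10 factors were called between genotypes by edgeR's quasi-likelihood test, where 0.0373% of 10737 genes were. *Irx3* and *Hopx* had an unadjusted p under 0.05, both higher in KO, against 2.17% of genes tested. *Irx3* had 10.3, 12.2 and 17.0 in WT VMs and 24.0, 19.3 and 35.9 in KO VMs, from 11 to 31 raw counts, without overlap. Its log2 fold change was 0.99 (95% interval 0.12 to 1.87, adjusted p = 0.934 in edgeR's test). *Hopx* had 903, 923 and 927 in WT VMs and 1136, 1069.6 and 1205 in KO VMs, also without overlap, with a log2 fold change of 0.31 (0.05 to 0.58, adjusted p = 0.934 in edgeR's test). Such groups, with KO the higher, were found for 4.6% of all genes tested there, and each of these factors reached the smallest exact permutation p of 0.1. The other 8 factors had log2 fold changes between -0.48 for *Id2* and 0.12 for *Tbx20*. *Etv1*, at -0.30 (-1.05 to 0.46), was within the VM spread. Markers of other cell types mostly had lower values in KO VMs, with the lowest sums in KO VM replicate 1. Summed normalized counts of fibroblast, endothelial and leukocyte markers were 72.1, 103 and 14.1 in that library. In KO VM replicates 2 and 3 they lay within the WT VM ranges of 231 to 421, 375 to 738 and 54.7 to 149. Log2 fold changes, KO over WT, were below 0 for 7 of 7 endothelial, 5 of 6 fibroblast, 5 of 7 smooth muscle or pericyte and 3 of 4 leukocyte markers tested, with 0 called by edgeR's test. At an unadjusted p under 0.05, 2 endothelial and 2 smooth muscle or pericyte markers were lower in KO, where 2.95% of all genes tested were. The part of these cells in the values of *Irx3* and *Hopx* was not tested.

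The direct test of whether the genotype difference was unequal in PCs and VMs called 0 of 10 factors in edgeR's test, with 0% of 11323 genes called and 1.84% at an unadjusted p under 0.05 with a negative term. *Hopx* was the 1 factor with such a p and a negative term, and 0 had one with a positive term. Its genotype difference in PCs minus that in VMs was, as a log2 value, -1.11 (standard error 0.305, adjusted p = 0.998 in edgeR's test), and it was -0.78 without WT PC replicate 2. For *Etv1* the same term was -0.99 (95% interval -2.53 to 0.55). Over both cell types together, 0 factors were called (background 0.0353%), and *Etv1* had the 1 unadjusted p under 0.05, with a log2 fold change of -0.88 (p = 0.0296, adjusted p = 0.914 in edgeR's test; exact permutation p = 0.09), where 3.13% of genes had one and were lower in KO. When WT PC replicate 2 was left out, *Irx3* had such a p too, with a log2 fold change of 0.77. The sources do not say whether PC and VM libraries share hearts. The 12 libraries may thus not be independent for the genotype difference over both cell types, in edgeR's fit or in the permutation.

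Set per kb of exon, the order of the factors was led by *Hopx* in every group, at 1424 ± 484 normalized counts per kb (SD, n = 3) in WT PCs (1146 without replicate 2) and 605 ± 8.60 in WT VMs. *Tbx20* and *Gata4* came next, at 99.1 ± 2.76 and 63.0 ± 14.3 per kb in WT VMs, where *Hopx*, *Tbx20* and *Gata4* did not overlap with their neighbours in the order. *Etv1* was the lowest of the 10 per kb in WT VMs, at 2.14 ± 0.570, and was at 26.0 ± 12.4 in WT PCs (22.9 without replicate 2), below *Tbx5* and above *Irx4* in the order of means. In WT VMs the levels per kb of *Irx3* (4.77 ± 1.25), *Id2* (2.92 ± 1.03), *Tbx3* (2.59 ± 1.504) and *Etv1* overlapped from each neighbour to the next. Across the 4 groups, the highest group mean was 14.9 times the lowest for *Etv1*, 7.26 times for *Id2*, 2.35 times for *Hopx* and 1.17 times for *Nkx2-5*. Without WT PC replicate 2 these ratios were 13.1, 3.24, 1.89 and 1.17. For *Nkx2-5*, *Irx3*, *Irx4*, *Tbx3*, *Tbx5*, *Tbx20* and *Gata4*, each group overlapped the next one in the order of means.

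**Figure D4:**
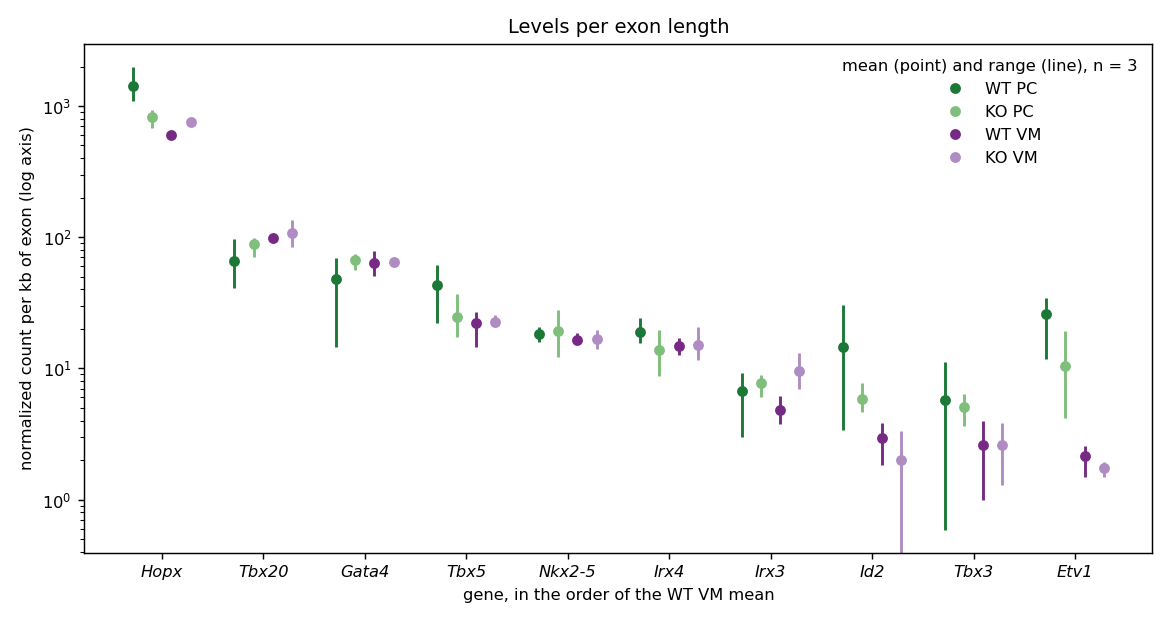
Normalized count per kb of exon (vertical, log axis) of each factor by group, with the mean as a point and the range of the 3 libraries as a line. *Etv1* moves from 2.14 in WT VMs, the lowest of the 10, to 26.0 in WT PCs, and the line of *Id2* in KO VMs runs off the axis because 1 library had 0 counts.

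Among 8089 genes with a mean normalized count above 20, the 3 genes most like each factor across the 12 libraries were listed for the 5 factors with a mean above 50, by Pearson's r of log2 normalized counts. All points share the groups and the library depth, so r is a description. The genes nearest to *Etv1* were *Sbk3* (r = 0.981), *Sema3a* (0.967) and *Slit2* (0.964), the last pair being secreted guidance cues and among the Purkinje markers. These values were 0.985, 0.958 and 0.957 when WT PC replicate 2 was left out. *Hopx* was nearest to *Peak1* (0.952), *Pmp22* (0.941) and *Pcp4* (0.932), a calmodulin regulator of PCs, and these values fell to 0.883, 0.860 and 0.860 without that library. *Tbx5* was nearest to *Hdgfl3* (0.952), *Cers4* (0.932) and *Slc16a7* (0.892), at 0.916, 0.880 and 0.802 without it. *Tbx20* was nearest to *Cluh* (0.951), *Myadml2* (0.942) and *Zfp106* (0.940), at 0.909, 0.864 and 0.858 without it, where they ranked 5, 21 and 24 among the genes compared. For *Gata4* the nearest genes, *Proser1*, *Eif2ak4* and *Farp2*, had r from 0.974 to 0.977 but 0.586 to 0.651 without WT PC replicate 2, so their likeness rests on that library.

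Genes that the factors are known to control were described from a list of 22, of which 21 were tested in WT. PC over VM, 1 of the 21 was called in WT and 1 of 20 in KO, *Scn10a* each time, and 2 of 21 over both genotypes, *Scn10a* and *Gja5*. Of all genes tested, 0.11%, 0.881% and 1.3% were called in these comparisons. *Scn10a*, a sodium channel gene that holds an enhancer bound by TBX5 and TBX3, had normalized counts of 88.5, 101 and 173 in WT PCs, 28.1, 22.7 and 93.6 in KO PCs, 2.81, 0.941 and 1.48 in WT VMs and 0, 7.70 and 1.16 in KO VMs. Its log2 fold change over both genotypes was 5.14 (standard error 0.602, adjusted p = 4.85e-04 in edgeR's test), with all WT VM libraries at or under 3 counts. *Gja5*, which encodes connexin 40, had 51.9, 44.9 and 84.9 in WT PCs, 22.9, 5.05 and 92.2 in KO PCs and 1.28 to 8.14 in VMs, with a log2 fold change of 3.66 (adjusted p = 0.00404 in edgeR's test). For both genes KO PC replicate 3 again stood above the other KO PC libraries, as it did for *Etv1*.

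*Gja1*, the connexin 43 gene of working myocardium that TBX3 represses, did not pass the adjustment, at 1014 to 1523 in PCs and 1446 to 1867 in VMs (log2 fold change -0.40, p = 0.00409, adjusted p = 0.124 in edgeR's test; exact permutation p = 0.005). *Nppa* was listed at 3 or fewer counts in 7 of the 12 libraries and was too low to compare. Between genotypes 0 of the target genes were called in PCs (21 tested) or in VMs (18 tested), where 0% and 0.0373% of all genes tested were. At an unadjusted p under 0.05 in edgeR's test, 1 was higher and 1 lower in KO PCs (0.596% and 2.6% of all genes tested), and 5 of 18 were higher and 0 lower in KO VMs (2.17% and 2.95%).

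Of 36 further regulators of the conduction system, nodes, atria and working myocardium, 26 were tested in WT, and 0 were called by edgeR's test in any of the 7 comparisons. Of all genes tested, 0% to 1.3% were called in these 7 comparisons. At an unadjusted p under 0.05, 1 was higher and 2 were lower in PCs in WT (5.14% and 1.29% of all genes tested), 5 were higher in PCs in KO (7.25%), and 6 were higher and 1 lower over both genotypes (8.91% and 2.77%). Between genotypes, 0 of 26 had such a p in PCs, where 0.596% of all genes tested were higher and 2.6% lower in KO. In VMs 1 of 24 had one, higher in KO, where 2.17% of all genes tested were higher. The median log2 fold change of those tested was -0.02 in WT and 0.17 in KO, PC over VM.

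Markers of other cell types moved with the comparison of PCs and VMs. The summed normalized count of 8 fibroblast markers ran from 668 to 1676 in PCs and from 72.1 to 421 in VMs, that of 8 endothelial markers from 779 to 2596 and from 103 to 738, and that of 8 leukocyte markers from 269 to 708 and from 14.1 to 149. In each of these lists, every marker tested had a PC over VM log2 fold change above 0, in WT and in KO. Over both genotypes, 4 of 7 fibroblast, 2 of 7 endothelial, 1 of 7 smooth muscle or pericyte and 2 of 5 leukocyte markers were called, among them *Dcn* (log2 fold change 2.05), *Cdh5* (1.77), *Kcnj8* (2.42) and *C1qb* (2.60). Of all 11323 genes tested there, 1.3% were called. WT PC replicate 2, with the highest *Id2*, *Hopx* and *Tbx5*, also had the highest fibroblast, leukocyte and atrial or nodal sums. Cardiomyocyte markers summed to 379453 to 642512 in PCs and 560904 to 689367 in VMs, with the lowest in WT PC replicate 2, and 0 of 8 were called. In the Schwann cell or neuron list, *Prph*, *Sox10* and *Th* were at 0 in all 12 libraries. The summed normalized count of its 7 markers ran from 16.6 to 62.4 in WT PCs and from 4.71 to 24.4 in WT VMs. In KO it ran from 11.4 to 21.1 in PCs and from 5.66 to 24.3 in VMs. Of those tested, 2 of 2 in WT and 1 of 1 in KO had a PC over VM log2 fold change above 0, with 0 called. Atrial or nodal markers summed to 36.9 to 579 in PCs and 31.3 to 199.7 in VMs. The part of these cells in the values of *Id2*, *Hopx*, *Tbx5*, *Tbx20* and *Gata4* was not tested.

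**Figure D5:**
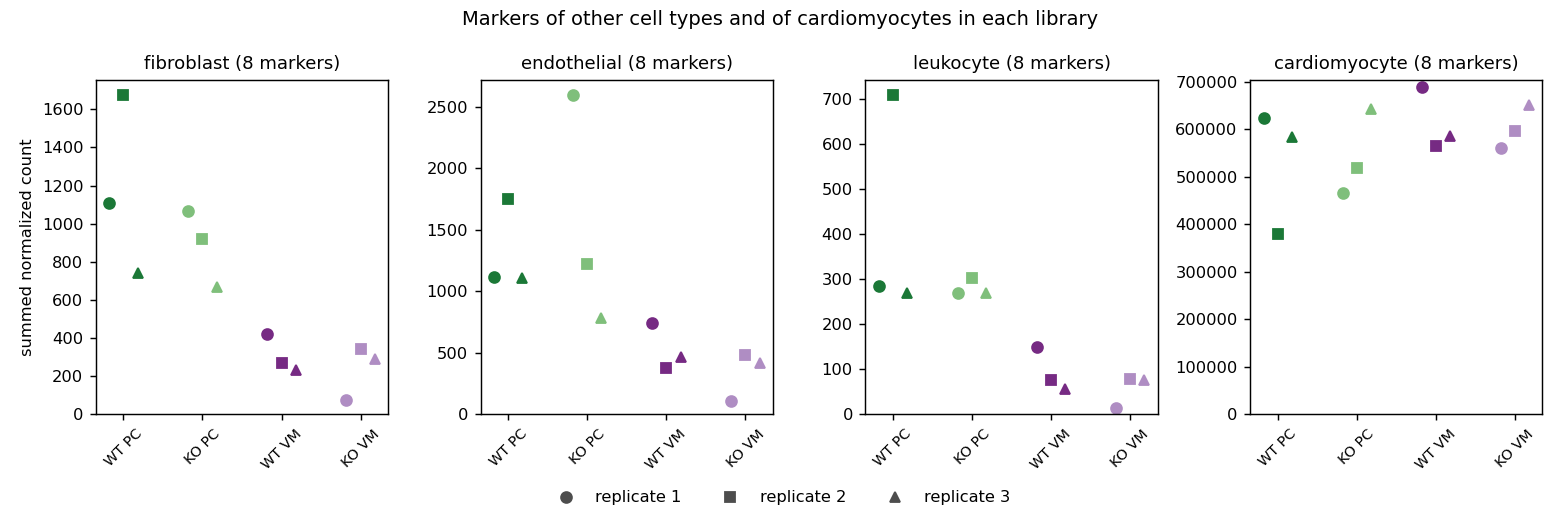
Summed normalized counts (vertical, linear axes from 0) of 8 markers each of fibroblasts, endothelial cells, leukocytes and cardiomyocytes in each library, by group, with replicate numbers as symbols. The first 3 lists lie higher in all 6 PC libraries than in the VM libraries, and the cardiomyocyte list is lowest in WT PC replicate 2, at 379453.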

How the data were processed

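RNA of sorted PCs and VMs gave 12 libraries, grouped by genotype and cell type as their titles give them. The authors deposited raw counts of read pairs per gene, 1 table per library and without normalization. Per the labels they were made by STAR 2.5.0c against mm10, guided by the annotation GRCm38.74, and by HTSeq 0.6.0, with Picard 1.126 for insert sizes. Rows of pairs that HTSeq gave to no gene, 40.0% to 73.6% of pairs, entered no test. GENCODE M21 supplied positions and exon lengths, and 382 of the 48526 identifiers, with 0.00511% of the counts, had no entry in it.

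Counts were analysed in R 4.3.3 with edgeR 4.0.16 (TMM, glmQLFit and glmQLFTest, Benjamini-Hochberg adjustment over all genes with a mean normalized count above 5 in the fit), on the 6 libraries of a pair of groups or on all 12. A factor was called at an adjusted p under 0.05. Two-sided exact permutation tests took mean log2(normalized count + 2). The edgeR steps were also run on simulated counts, where the sign of changes set in genes with higher counts was checked. No change was set in genes with low counts, so detection of changes in them was not checked. No libraries of a group were alike within sampling noise (lowest chi-square per degree of freedom 3.72).

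The alternatives were DESeq2 1.42.0 (Wald test, or its size factors in edgeR), filterByExpr, no filter, limma 3.58.1 voom with sample weights, omission of mitochondrial genes, a replicate block, 1 fit of all 12 libraries, and omission of each library. The genes named are the 10 factors, the 3 genes most like each factor with a mean above 50, list members called in a comparison, *Gja5*, *Gja1*, *Nppa*, *Ncam1* and *Cntn2*. The lists hold 36 other factors, 22 target genes and markers of 8 cell types. The factors and lists were chosen with earlier results of these data known, and no list was tested as a set. Measurements by qPCR were not analysed here. Some genes of these lists are not reported here by name.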

Additional observations from a re-analysis of the deposited data

Results flagged for a closer look

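*Hopx* drew attention because its genotype difference ran in opposite directions in PCs and VMs. Every KO PC library (1021 to 1410.3 normalized counts) was below every WT PC library (1656 to 3000.0), and every KO VM library (1069.6 to 1205) was above every WT VM library (903 to 927). The difference between the genotype effects was -1.11 on the log2 scale in edgeR's interaction test, with an unadjusted p of 0.00227 and an adjusted p of 0.998, so it did not pass the correction over 11323 genes. Its unadjusted p was under 0.05 in 12 of 12 fits that left out 1 library, with values from -1.28 to -0.78, the last without WT PC replicate 2, and in 7 of 7 other alternatives, with adjusted p-values from 0.190 to 0.999. Whether the markers of other cell types in that library take part in this value was not tested. *Hopx* was picked by this same pattern, and every fit reuses these libraries, so the small unadjusted p-values add no separate support. How many of all genes show such a pattern was not counted.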

How the results depend on the processing

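The number of factors called moved with the processing, and *Etv1* was the factor most often called. For WT PC against WT VM (1 called), 2 were called with DESeq2's Wald test, without a filter, with voom and in 1 fit of all 12 libraries, and 0 to 2 when a library was left out. With the replicate block 0 were called, *Etv1* having an adjusted p of 0.1002 and a log2 fold change of 3.46 in edgeR's test. For KO PC against KO VM (1 called), 0 were called in the fit of all 12 libraries (*Etv1* adjusted p = 0.0991 in edgeR's test) and 0 to 1 with a library left out. Over both genotypes (1 called), 3 were called with DESeq2's Wald test, without a filter and with voom, and 1 to 3 with a library left out, the 3 being without WT PC replicate 2. For KO PC against WT PC and for KO against WT over both cell types (0 called), 1 was called without a filter, *Etv1* each time. For KO VM against WT VM and the interaction, 0 were called in every alternative run. Over all genes, the number called in WT PC against WT VM was 13 of 11822, 4 with the replicate block, and 0 to 96 with a library left out. It was 116 with DESeq2's Wald test, 297 of 21916 without a filter and 125 with voom. In 1 fit of all 12 libraries it was 38 of 11390. For KO PC against KO VM it was 95 of 10779, 1 of 11191 in 1 fit of all 12 libraries, and 19 to 142 with a library left out. Over both genotypes it was 147 of 11323, and 458 with DESeq2's Wald test, 592 of 23366 without a filter and 451 with voom. Over both genotypes without WT PC replicate 2 it was 396 of 11375. For KO PC against WT PC it was 0 of 11754, with 376 at an unadjusted p under 0.05. There it was 7 with DESeq2's Wald test and 132 of 21610 without a filter. For KO against WT over both cell types it was 4 of 11323, and 130 of 23366 without a filter.

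The numbers were not taken to pair the libraries: after centring each group, same-numbered libraries correlated at 0.207, 0.0813 and 0.150 across 8100 genes between WT PCs and WT VMs, and at -0.0096, 0.121 and 0.019 between KO PCs and KO VMs. Each WT PC library correlated best with the WT VM library of its own number, which is a hint from the data and not from the design. Under the block *Tbx3* in KO PC against WT PC turned to 0.26 and *Irx4* in KO VM against WT VM to -0.011.

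Of 1127 alternatives for single factors, 1050 kept direction and side of the threshold, 9 lost a call, 15 gained one and 53 changed sign, none of these with an unadjusted p under 0.285. With voom the sign changed for *Irx4* in KO PC against KO VM (0.070), *Irx3* (-0.14) and *Gata4* (0.020) over both genotypes, *Nkx2-5* (-0.062), *Irx4* (-0.14), *Tbx5* (-0.033) and *Tbx20* (-0.0065) in KO VM against WT VM, *Hopx* over both cell types (0.029) and *Id2* in the interaction (0.31). Without a filter it changed for *Irx4* (-0.0050) and *Tbx5* (-0.013) in KO VM against WT VM, and with filterByExpr for *Tbx5* (-2.5e-05).

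With a library left out, signs changed for *Gata4* (-0.71 to 0.015) in WT PC against WT VM, and for *Irx4* (-0.43 to 0.21), *Gata4* (-0.020 to 0.16), *Nkx2-5* (-0.11 to 0.48) and *Tbx5* (-0.29 to 0.38) in KO PC against KO VM. Over both genotypes they changed for *Irx3* (-0.10 to 0.24) and *Gata4* (-0.29 to 0.048). In KO PC against WT PC they changed for *Irx3* (-0.17 to 0.50), *Tbx3* (-0.67 to 0.67) and *Nkx2-5* (-0.25 to 0.36). In KO VM against WT VM they changed for *Nkx2-5* (-0.12 to 0.14), *Tbx3* (-0.35 to 0.46), *Tbx5* (-0.22 to 0.15), *Gata4* (-0.080 to 0.25), *Irx4* (-0.28 to 0.18), *Tbx20* (-0.077 to 0.27) and *Id2* (-1.04 to 0.055). Over both cell types they changed for *Tbx3* (-0.33 to 0.31) and *Nkx2-5* (-0.089 to 0.17), and in the interaction for *Nkx2-5* (-0.26 to 0.32), *Id2* (-1.31 to 0.36) and *Tbx3* (-0.71 to 0.59). The cause was not tested.

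Low counts for *Id2*, *Irx3*, *Nkx2-5* and *Tbx3* limit what can be seen for them, and 3 libraries a group cannot give an exact p under 0.1.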
